A study of Caenorhabditis elegans with 13 samples.

Results

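The mir-238 family of Caenorhabditis elegans was followed here through 3 mature microRNAs (miRNAs), cel-miR-238-3p, cel-miR-239a-5p and cel-miR-239b-5p, written below without the species prefix. They were found by their mature names in every library and are 3 of the 434 mature miRNAs counted. The 13 small RNA libraries came from whole bodies of N2 worms, the standard laboratory strain, with no allele or transgene given. One set of worms was fed ad libitum (AL) and sampled on adult days 2, 4, 6, 8 and 10. The others were kept on regimens that the labels call CR and IF, without describing either protocol, and were sampled on days 4, 6, 8 and 10. Each diet and day has 1 library, and nothing in the labels tells separate cultures from repeat samples of 1 culture, so p-values measure only the spread between these libraries. By its title the series concerns dietary restriction and longevity, and the comparisons here ask how the level of each miRNA changed with adult age and whether it differed between diets.

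A miRNA is cut from a hairpin precursor, and 1 arm of the hairpin is usually kept as the guide that lowers the output of target mRNAs. Targets are chosen mainly through the seed, the bases near the guide's 5′ end, and miRNAs that share a seed are grouped as a family, as miR-238, miR-239a and miR-239b are. In worms, loss of mir-238 has been reported to shorten lifespan, while a deletion that removes mir-239a and mir-239b together has been reported to lengthen lifespan and raise resistance to heat. The family is therefore named in work on aging as holding members with opposite loss-of-function phenotypes.

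The 3 hairpins lie at 2 places in the genome (WBcel235). The mir-238 hairpin occupies III:8867328-8867425 on the minus strand, and its guide arm, miR-238-3p, III:8867343-8867365. The mir-239a hairpin occupies X:11792445-11792542 on the plus strand, with miR-239a-5p at X:11792460-11792482. The mir-239b hairpin occupies X:11791302-11791399 on the minus strand, with miR-239b-5p at X:11791363-11791384. The 2 hairpins on chromosome X are 1045 bp apart and point away from each other on opposite strands. No annotated gene overlaps any of the 3 hairpins, so none is exonic, intronic or in a UTR. The nearest protein-coding gene is K01F9.2 for mir-238, at 2673 bp, rsd-3 for mir-239a, at 5962 bp, and Y102F5A.1 for mir-239b, at 6971 bp.

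Libraries held 2639586 to 5143918 reads, and all 3 miRNAs were well above the limit that depth sets. The lowest read count of a member was 823, for miR-239b-5p in AL on day 8. The count taken as the floor was 3 reads, which over the libraries correspond to 0.583 to 1.137 CPM, the library's reads scaled to a common size. In AL on day 8 the floor was 0.677 CPM. Levels below are CPM after trimmed mean of M values (TMM) scaling, whose factors were lowest on day 8 and highest on day 6. How the authors divided reads between miR-239a-5p and miR-239b-5p, which are very alike in sequence, is not given in the sources used here, so the split between them is uncertain.

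miR-238-3p was high late. In AL its level was 3547, 3517, 10352, 45295 and 28912 CPM on days 2, 4, 6, 8 and 10. In CR it was 1990, 7702, 22832 and 31410 CPM on days 4, 6, 8 and 10. In IF it was 5844, 7029, 30407 and 11960 CPM on days 4, 6, 8 and 10. All 6 libraries of days 8 and 10 were above all 7 libraries of days 2, 4 and 6. By number of reads it ranked 31st among all miRNAs at its lowest, in CR on day 4, and 7th at its highest, in CR on day 10.

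miR-239a-5p showed the reverse order of days. In AL its level was 9704, 30892, 26035, 1689 and 1789 CPM on days 2, 4, 6, 8 and 10. In CR it was 13230, 16940, 2246 and 2236 CPM on days 4, 6, 8 and 10. In IF it was 3596, 14818, 2905 and 2486 CPM on days 4, 6, 8 and 10. The 6 libraries of days 8 and 10 lay between 1689 and 2905 CPM, below every earlier library, and the IF library of day 4 was the lowest of the earlier ones. Per total reads, without TMM scaling, that IF library of day 4 was at 3470 CPM, just below the IF library of day 10 at 3681. Its rank by reads ran from 5th, in AL on day 4, to 39th, in AL on day 8.

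miR-239b-5p was the least abundant of the 3 in every library, and its high libraries were those of day 4. In AL its level was 317, 2649, 682, 391 and 492 CPM on days 2, 4, 6, 8 and 10. In CR it was 1125, 461, 410 and 417 CPM on days 4, 6, 8 and 10. In IF it was 1952, 421, 832 and 715 CPM on days 4, 6, 8 and 10. The 3 day 4 libraries were above all 10 others, and with TMM scaling the AL library of day 2 was the lowest of all 13. Per total reads that library was at 322 CPM, above the day 8 libraries of AL, at 186, and of CR, at 289. On day 6, when miR-239a-5p was at 14818 to 26035 CPM, miR-239b-5p was at 421 to 682, and in IF on day 4, where miR-239b-5p was high for its range, miR-239a-5p was low for its own.

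**Figure D1:**
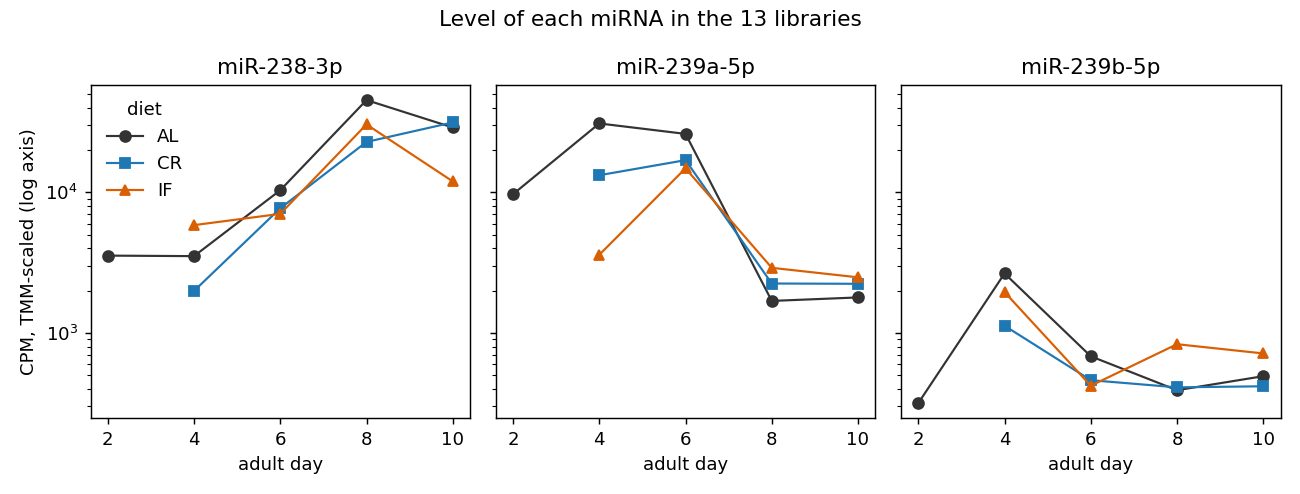
Level of each miRNA (TMM-scaled CPM, log axis) against adult day, with 1 point per library and 1 line per diet. miR-238-3p reaches 11960 to 45295 CPM on days 8 and 10, miR-239a-5p drops to between 1689 and 2905 CPM on those days, and miR-239b-5p is highest on day 4, at 1125 to 2649 CPM.

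Within a library, the make-up of the family can be read without any scaling between libraries. The 3 miRNAs together took 1.10% of the reads in IF on day 4 and up to 5.71% in AL on day 6. miR-239a-5p led in 6 libraries, AL on days 2, 4 and 6, CR on days 4 and 6, and IF on day 6, with 66.5% to 83.4% of the family reads. miR-238-3p led in the other 7 libraries, with 78.9% to 95.6% of the family reads on days 8 and 10 and 51.3% in IF on day 4. miR-239b-5p took 17.1% of the family reads in IF on day 4, and 7.15% in AL on day 4 was its next highest share. Of the reads of miR-239a-5p and miR-239b-5p together, miR-239b-5p held 2.55% to 2.76% on day 6 and 15.4% to 22.3% on days 8 and 10. On day 4 that share was 7.90% in AL, 7.84% in CR and 35.2% in IF.

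**Figure D2:**
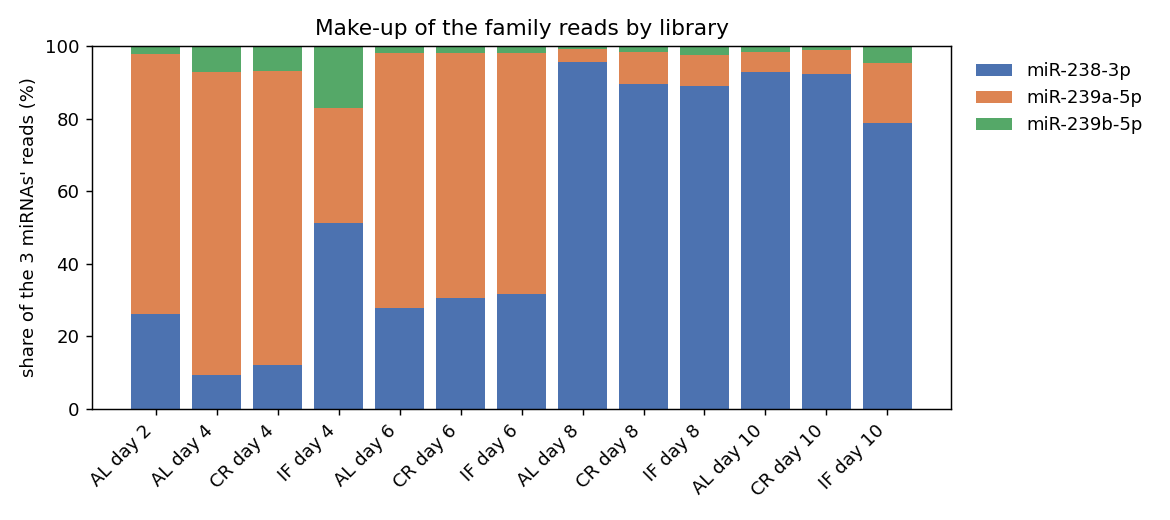
Share of the family reads (%) held by each miRNA, with 1 bar per library ordered by day. miR-239a-5p fills 66.5% to 70.2% of the bars of day 6, and miR-238-3p 89.1% to 95.6% of those of day 8.

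Between days 6 and 8, miR-238-3p rose and miR-239a-5p fell. The test compared the 3 libraries of each day, 1 per diet, with edgeR's quasi-likelihood test and Benjamini-Hochberg adjustment over all 212 miRNAs that passed the filter of 10 reads in 4 libraries. All 3 members passed that filter, and a miRNA is called when its adjusted p is under 0.05. miR-238-3p went from a mean of 8361 CPM on day 6, with a range of 7029 to 10352, to 32845 on day 8, with a range of 22832 to 45295. Its log2 fold change was 1.94 ± 0.49 (SE; edgeR adjusted p = 0.00359). miR-239a-5p went from 19264 CPM, with a range of 14818 to 26035, to 2280, with a range of 1689 to 2905, which is -2.98 ± 0.60 as a log2 fold change (edgeR adjusted p = 0.00079). For both miRNAs the days did not overlap, and all 3 diets moved the same way. miR-239b-5p averaged 522 CPM on day 6 and 544 on day 8, with a log2 fold change of 0.00 and a 95% interval of -0.86 to 0.86 (edgeR adjusted p = 0.998). Between these days 50.9% of all tested miRNAs were called, so 2 of 3 members called is a share near what the whole miRNA set showed.

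Between days 4 and 6, only miR-239b-5p among the members was called. Its mean was 1909 CPM on day 4, with a range of 1125 to 2649, and 522 on day 6, with a range of 421 to 682, which did not overlap. The log2 fold change was -1.81 ± 0.42 (edgeR adjusted p = 0.00928), where 17.5% of all tested miRNAs were called. Without the IF library of day 6 it was -1.52 (edgeR adjusted p = 0.0688), and the call was lost. For miR-238-3p the change was 1.14 ± 0.48 (edgeR adjusted p = 0.102), which became 1.84 (edgeR adjusted p = 0.0174) without the IF library of day 4. miR-239a-5p had 0.39 ± 0.56 (edgeR adjusted p = 0.597), and -0.18 without that same IF library. With TMM scaling its AL and IF libraries moved in opposite directions. Per total reads it rose in each diet, from 21585 to 40080 CPM in AL, from 14838 to 26493 in CR and from 3470 to 24174 in IF.

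From day 8 to day 10 no member was called, although 49.5% of all tested miRNAs were. The log2 fold change was -0.39 with a 95% interval of -1.40 to 0.63 for miR-238-3p, -0.08 with -1.25 to 1.09 for miR-239a-5p, and 0.01 with -0.85 to 0.87 for miR-239b-5p. With TMM scaling miR-238-3p split by diet, with CR higher on day 10 than on day 8 and AL and IF lower. Per total reads AL was higher too, at 25169 CPM on day 10 and 21500 on day 8.

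Over the whole span from day 4 to day 10 all 3 members were called, miR-238-3p upward and the pair on chromosome X downward. miR-238-3p averaged 3784 CPM on day 4 and 24094 on day 10, a change of 2.69 ± 0.51 on the log2 scale (edgeR adjusted p = 0.00125). miR-239a-5p averaged 15906 CPM on day 4 and 2170 on day 10, a change of -2.66 ± 0.61 (edgeR adjusted p = 0.00377). miR-239b-5p averaged 1909 CPM on day 4 and 542 on day 10, a change of -1.79 ± 0.42 (edgeR adjusted p = 0.00426). The days did not overlap for any of the 3 in TMM-scaled CPM, and 35.4% of all tested miRNAs were called in this comparison. The 3 calls held in 17 of 17 alternatives each, other tests, other scalings, no filter and each library left out in turn, with log2 fold changes from 2.22 to 3.33 for miR-238-3p, from -3.30 to -1.85 for miR-239a-5p and from -1.98 to -1.44 for miR-239b-5p. None of these alternatives takes account of what the libraries of a day share beyond age. The replicate number in the titles stands for the day, so age and such shared effects cannot be told apart in any day comparison here.

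The scaling between days bears on these values. Scaling by total counts in place of TMM shifted the median log2 fold change of all tested miRNAs by 0.84 for day 6 against day 4, by -1.36 for day 8 against day 6, by 0.88 for day 10 against day 8 and by 0.30 for day 10 against day 4. The split of called miRNAs into higher and lower went from 16 and 21 to 84 and 9 in the first of these, where DESeq2 size factors gave 11 and 31, from 57 and 51 to 23 and 105 in the second, from 49 and 56 to 84 and 34 in the third, and from 36 and 39 to 45 and 21 in the last. Another scaling moves all miRNAs of a library alike, so a member's distance from the median miRNA stays nearly the same by construction and is given here only to place the member. From day 6 to day 8, miR-238-3p was 1.78 above the median on the log2 scale with TMM and 1.75 above it with total counts, though the change itself was then 0.55 (edgeR adjusted p = 0.266). miR-239a-5p was -3.14 and -3.16 from it, and miR-239b-5p, from day 4 to day 6, -1.94 under both. Per total reads, the change of miR-239b-5p from day 4 to day 6 was -0.97 (edgeR adjusted p = 0.0873), and from day 6 to day 8 -1.38 (edgeR adjusted p = 0.0155).

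**Figure D3:**
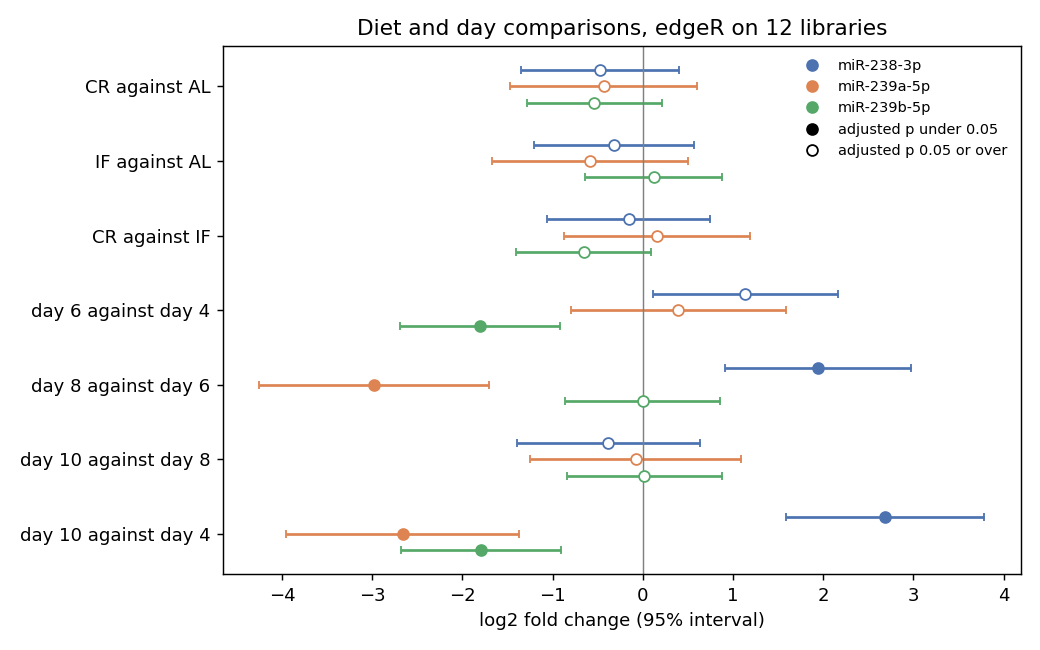
Log2 fold change of each miRNA in the 3 diet and 4 day comparisons (edgeR on 12 libraries; bars are 95% intervals, filled points have an adjusted p under 0.05). The filled points are all in day comparisons: miR-239b-5p at -1.81 for day 6 against day 4, miR-238-3p at 1.94 and miR-239a-5p at -2.98 for day 8 against day 6, and all 3 for day 10 against day 4.

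Whole worms mix tissues, and the summed levels of miRNAs known to mark tissues also differed between days. In such bulk samples, fewer cells of a type and less RNA per cell cannot be told apart. The 8 miRNAs of the oocyte and embryo list, all with reads in every library, had sums of 168365 to 411662, 99782 to 192558, 38722 to 93343 and 74247 to 108742 CPM on days 4, 6, 8 and 10. The 3 intestinal miRNAs, all with reads in every library, had sums of 503 to 1500, 800 to 1666, 2570 to 3125 and 2283 to 3184 CPM on days 4, 6, 8 and 10. The muscle miRNA miR-1-3p was at 4222 to 11725, 6754 to 7914, 57930 to 94785 and 2288 to 22414 CPM on days 4, 6, 8 and 10. The 3 neuronal miRNAs, of which 2 or 3 had reads in each library, had sums of 11.4 to 18.5, 9.41 to 14.2, 24.6 to 27.1 and 14.1 to 43.6 CPM on days 4, 6, 8 and 10. The neuronal list did not move as 1. From day 6 to day 8, miR-791-3p rose by 1.33 on the log2 scale (edgeR adjusted p = 0.0470). Over the same days miR-124-3p, at only 0 to 6.96 CPM over the libraries, had -0.93 (edgeR adjusted p = 0.291). With TMM scaling, intestinal markers were thus higher on the days when miR-238-3p was high. The TMM factors in AL, CR and IF were 1.54, 1.56 and 1.63 on day 6 and 0.475, 0.704 and 0.679 on day 8. Per total reads, the TMM-scaled value times this factor, the intestinal sum was not higher on day 8 than on day 6 in any diet. The sums of the oocyte and embryo markers reached their highest value on day 4, in IF, when miR-239b-5p was high. In AL that sum was 146176 CPM on day 2 and 168365 on day 4, while miR-239b-5p was at 317 and 2649 CPM. The part of these tissues in the results was not tested.

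A steady trend with age, fitted over the 13 libraries with a term for diet and a slope for day, was called for miR-238-3p alone. It rose by 0.51 ± 0.12 per day on the log2 scale (edgeR adjusted p = 0.00814). The slope was -0.48 ± 0.17 for miR-239a-5p (edgeR adjusted p = 0.0776) and -0.21 ± 0.10 for miR-239b-5p (edgeR adjusted p = 0.175). Of all 214 miRNAs tested for this slope, 13.6% were called. The fit takes the libraries of a day as independent, and they were not: with day as a random block, the slope of miR-238-3p was 0.46 (limma-voom adjusted p = 0.0929). The slope of miR-239a-5p was called without the AL library of day 2 (-0.57, edgeR adjusted p = 0.0454) or without the AL library of day 6 (-0.49, edgeR adjusted p = 0.0483).

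The ratio of 2 members within a library needs no scaling, and the ratios to miR-238-3p were high early and low late. The log2 ratio of miR-239a-5p to miR-238-3p reads in AL was 1.45, 3.13, 1.33, -4.74 and -4.01 on days 2, 4, 6, 8 and 10. In CR it was 2.73, 1.14, -3.35 and -3.81 on days 4, 6, 8 and 10. In IF it was -0.70, 1.08, -3.39 and -2.27 on days 4, 6, 8 and 10. The ratio was positive in 6 of the 7 libraries of days 2 to 6 and negative in all 6 later ones. Its slope was -0.89 per day (exact two-sided permutation of days within diets, p = 0.00489, adjusted over the 3 ratios 0.0102). The slope of miR-239b-5p to miR-238-3p was -0.61 per day (exact permutation p = 0.0068, adjusted 0.0102), and that of miR-239b-5p to miR-239a-5p was 0.27 (exact permutation p = 0.127, adjusted 0.127). That last slope was 0.41 without the IF library of day 4 (exact permutation, adjusted p = 0.0223). When days 4 to 10 were exchanged for all diets together, which respects the shared days, the first 2 slopes were -1.01 and -0.76 (exact permutation p = 0.167 each, adjusted 0.25), and the smallest p that the 24 arrangements allow is 0.0833.

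The diets gave no call for any member. IF against AL, compared within days over the 8 libraries of the 2 diets in a fit that also held CR, had log2 fold changes of -0.32 for miR-238-3p, with a 95% interval of -1.20 to 0.56 (edgeR adjusted p = 0.650), -0.59 for miR-239a-5p, with -1.68 to 0.50 (edgeR adjusted p = 0.476), and 0.12 for miR-239b-5p, with -0.64 to 0.87 (edgeR adjusted p = 0.860). In the same comparison 14.2% of all tested miRNAs were called. The means over days 4 to 10 were 22019 CPM in AL (SD 18865, n = 4 days), 15984 in CR (SD 13531, n = 4) and 13810 in IF (SD 11377, n = 4) for miR-238-3p. They were 15101 CPM in AL (SD 15557, n = 4), 8663 in CR (SD 7568, n = 4) and 5951 in IF (SD 5929, n = 4) for miR-239a-5p. The SD comes from the days, and it was close to the mean in each diet.

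CR against AL gave -0.47 for miR-238-3p, with a 95% interval of -1.35 to 0.40 (edgeR adjusted p = 0.596), -0.43 for miR-239a-5p, with -1.47 to 0.60 (edgeR adjusted p = 0.727), and -0.54 for miR-239b-5p, with -1.29 to 0.21 (edgeR adjusted p = 0.473). CR against IF gave -0.16, with -1.06 to 0.75 (edgeR adjusted p = 0.906), 0.15, with -0.88 to 1.19 (edgeR adjusted p = 0.916), and -0.66, with -1.41 to 0.09 (edgeR adjusted p = 0.508). edgeR called 0.0% of all tested miRNAs in either comparison. In the first of them 39 passed an unadjusted p of 0.05, DESeq2 called 21 and limma-voom 0, and in the second 18 passed the unadjusted p and both other tools called 0. The intervals are wide, and the missing calls do not show that the diets act alike.

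By day, the differences from AL were not of 1 sign. miR-238-3p was lower than in AL in CR on days 4, 6 and 8, by log2 ratios of -0.82, -0.43 and -0.99, and 0.12 higher on day 10. In IF it was 0.73 higher on day 4 and lower on the later days, with -0.56, -0.57 and -1.27. miR-239a-5p in IF was -3.10 on day 4 and -0.81 on day 6, then 0.78 on day 8 and 0.48 on day 10. In CR it was -1.22 and -0.62 on days 4 and 6, then 0.41 and 0.32 on days 8 and 10. Both diets were thus below AL in the early libraries, where miR-239a-5p was high, and above it in the late ones. miR-239b-5p in IF was -0.44, -0.70, 1.09 and 0.54 on days 4, 6, 8 and 10, and in CR -1.24, -0.56, 0.07 and -0.24. AL is shared by both of these comparisons. These ratios depend on TMM scaling. Per total reads miR-239b-5p changed sign, to 0.03 in IF on day 4 and to 0.14 in CR on day 10. Other ratios shrank or grew, such as miR-238-3p in CR on day 4, at -0.14, and miR-239a-5p in IF on day 8, at 1.30.

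edgeR called no slope fitted for a single diet, for the members or for any other miRNA. For miR-238-3p they were 0.61 per day in AL, 0.68 in CR and 0.32 in IF, for miR-239a-5p -0.81, -0.55 and -0.31, and for miR-239b-5p -0.40, -0.23 and -0.20. edgeR called 0.0% of miRNAs in each of the 3 diets, with 19, 21 and 19 at an unadjusted p under 0.05 in AL, CR and IF, where DESeq2 called 4, 11 and 10 and limma-voom 0, 1 and 0. DESeq2 called miR-239a-5p in AL, at -0.88 per day (DESeq2 adjusted p = 0.0238), and miR-238-3p in CR, at 0.69 (DESeq2 adjusted p = 0.00866). The test that slopes differ between diets called 0.0% of miRNAs, with 1 at an unadjusted p under 0.05 and 0 by DESeq2 and by limma-voom. Its edgeR adjusted p was 0.999 for each member.

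The other arm of each hairpin was counted too, and its share of the hairpin's reads differed between libraries. Over the 13 libraries the correlation of log2 CPM between the arms was 0.15 for mir-238, 0.03 for mir-239a and -0.13 for mir-239b, given as a description. miR-238-5p held 4.63% of the reads of its hairpin in AL on day 4 (95% Wilson interval 4.28 to 4.996), 2.17% in AL on day 2 and 1.89% in CR on day 4, and 0.0745% to 0.819% in the other 10 libraries, IF on day 4 among them with 0.188%. Its level went from 32.9 to 33.8 CPM between days 6 and 8 in AL, from 14.9 to 50.7 in CR and from 5.36 to 49.2 in IF. The difference was called with TMM scaling (log2 1.77 ± 0.68, edgeR adjusted p = 0.0402) and in 9 of 17 alternatives, and it was 0.38 with total counts (edgeR adjusted p = 0.635). miR-239a-3p held 1.498% in AL, 2.87% in CR and 1.84% in IF on day 8, and at most 0.543% elsewhere. Its level between days 6 and 8 went from 26.0 to 25.7 CPM in AL, from 19.7 to 66.5 in CR and from 12.5 to 54.6 in IF, while the guide arm fell in all 3 diets. The difference was called with TMM scaling (log2 1.37 ± 0.52, edgeR adjusted p = 0.0378) and in 10 of 17 alternatives, and it was 0.0015 with total counts (edgeR adjusted p = 0.998). From day 8 to day 10 it fell by 2.63 (edgeR adjusted p = 0.000997), a call that held in 17 of 17 alternatives.

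miR-239b-3p had far more reads on day 10 than on any earlier day. It had 1 to 12 reads in each of the 10 libraries of days 2 to 8. On day 10 it had 228 reads in AL, 195 in CR and 331 in IF. These were 9.84% of the reads of the hairpin in AL (95% Wilson interval 8.69 to 11.1), 9.54% in CR (8.35 to 10.9) and 7.92% in IF (7.14 to 8.78), against at most 0.414% in every earlier library. The difference between days 10 and 8 was called (edgeR adjusted p = 8.04e-06), and no fold is given because the day 8 libraries held 1 or 2 reads. The guide arm miR-239b-5p did not pass the test between these days. miR-239b-3p passed the filter of 10 reads in 4 libraries only through the day 10 libraries and CR on day 6, with 12 reads. Its place among the tested miRNAs thus rests on the day when it was high, and its p-value adds nothing to the read counts. The Wilson intervals take each read as a separate molecule, which PCR copies are not, so they cover counting error and nothing else.

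**Figure D4:**
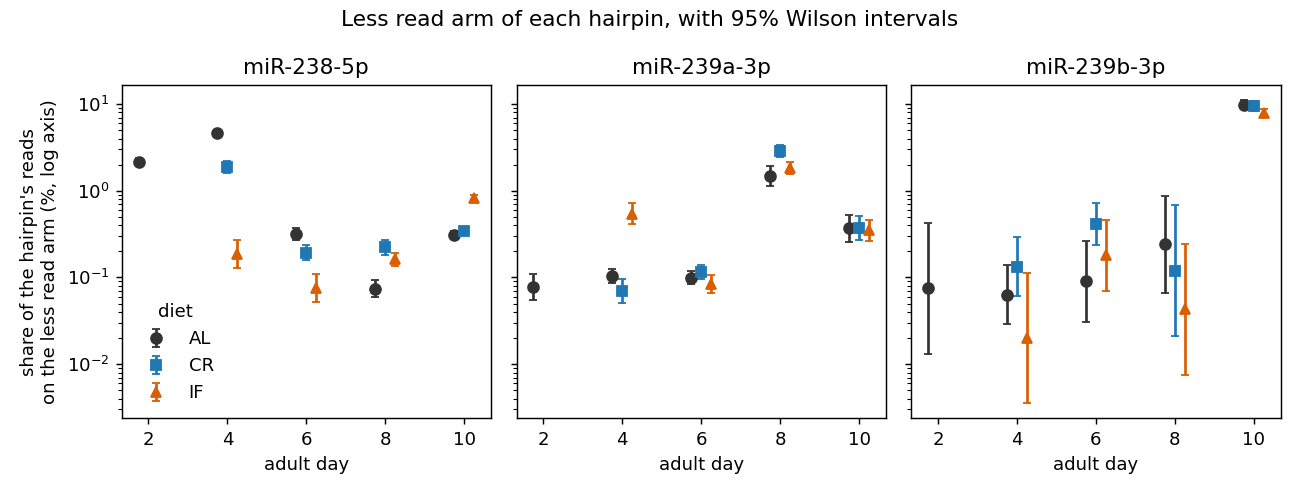
Share of a hairpin's reads on its less read arm (%, log axis) by adult day and diet, with 95% Wilson intervals that cover counting error only. miR-239b-3p stands at 7.92% to 9.84% in the 3 libraries of day 10, and miR-239a-3p at 1.498% to 2.87% in those of day 8.

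The miRNAs most like each member were taken as the 3 with the highest Pearson correlation of log2 CPM over the 13 libraries, among 161 miRNAs with a mean of 10 CPM or more. All these points share days, which moved many miRNAs, so the values are a description. miR-238-3p was closest to miR-64-5p (r = 0.93) and miR-65-5p (r = 0.92), whose hairpins belong to the mir-64 group, and to miR-791-3p (r = 0.89), a miRNA of sensory neurons that also stands in the neuronal list. miR-239a-5p was closest to miR-38-5p (r = 0.81), miR-35-5p (r = 0.80) and miR-56-5p (r = 0.79). The first 2 are the less read arms of mir-35 family hairpins, a family abundant in oocytes and embryos. miR-239b-5p was closest to miR-41-3p (r = 0.74) and miR-36-3p (r = 0.61), of the same family and also on the oocyte and embryo list, and to miR-52-5p (r = 0.58). Between members, r was -0.76 for miR-238-3p and miR-239a-5p, -0.47 for miR-238-3p and miR-239b-5p, and 0.32 for the pair on chromosome X.

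Around mir-238, 2 other hairpins lie within 10000 bp on the same strand, mir-80 at 1960 bp and mir-90 at 6561 bp, and their guides took different courses. miR-80-3p, of the mir-58 family, rose from day 4 to day 6 by 1.63 ± 0.43 on the log2 scale (edgeR adjusted p = 0.0161) and from day 8 to day 10 it fell by 1.25 (edgeR adjusted p = 0.0242), but with total counts the latter was -0.33 (edgeR adjusted p = 0.519). miR-90-3p rose from day 6 to day 8 by 4.08 ± 0.51 (edgeR adjusted p = 1.76e-05) and from day 8 to day 10 it fell by 4.96 (edgeR adjusted p = 8.04e-06). miR-238-3p shared the rise of miR-90-3p to day 8 and was not called in the later fall. The correlation of miR-238-3p over the 13 libraries was 0.27 with miR-80-3p and 0.64 with miR-90-3p.

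Of 9 other miRNAs tied to lifespan or heat stress in worm mutants, all 9 were tested, and edgeR called 0 between any 2 diets, beside 14.2% of all tested miRNAs for IF against AL and 0.0% for the other pairs. Their median log2 fold change was -0.76 for IF against AL, beside 0.03 for all tested miRNAs. It was -0.03 beside 0.08 for CR against AL, and 0.50 beside 0.03 for CR against IF. From day 4 to day 10, 3 rose and 2 fell, beside 35.4% of all tested miRNAs called in either direction. miR-83-3p, the worm relative of miR-29, rose by 2.99 ± 0.64 on the log2 scale (edgeR adjusted p = 0.00253), miR-228-5p by 1.73 ± 0.47 (edgeR adjusted p = 0.0125), and miR-246-3p, whose loss shortens lifespan, by 1.25 ± 0.44 (edgeR adjusted p = 0.0378). miR-34-5p, of the conserved miR-34 family tied to the DNA damage response, fell by 4.20 (edgeR adjusted p = 8.87e-06), and lin-4-5p, which times larval development and acts on adult lifespan, fell by 1.28 (edgeR adjusted p = 0.0217). The calls of miR-83-3p and miR-34-5p held in 17 of 17 alternatives, that of miR-228-5p in 15, and those of miR-246-3p and lin-4-5p in 10 each, with lin-4-5p at -0.98 with total counts (edgeR adjusted p = 0.100). miR-71-5p, whose loss shortens lifespan, had -1.51 ± 0.79 (edgeR adjusted p = 0.163). The median of the 9 from day 4 to day 10 was -0.42, beside 0.15 for all tested miRNAs. That median is the value of miR-124-3p, which was at only 0 to 6.96 CPM over the libraries. A slope with age was called for miR-83-3p, at 0.46 per day (edgeR adjusted p = 0.0053), and for miR-34-5p, at -0.51 (edgeR adjusted p = 0.0112), beside 13.6% of all tested miRNAs. Neither was called with day as a random block. The median slope of the 9 was 0.04 per day, as was that of all tested miRNAs.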

How the data were processed

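Per the labels' protocols, a 6% gel was used to take RNA of 18 to 30 nt, which was made into libraries with an Illumina small RNA kit, version 1.5. The deposited files hold unnormalized counts of reads, 1 for each of 447 pairs of mature miRNA and hairpin, per the file headers. What aligned and counted them, against which build and database release, is not given in the sources used here. Entries repeating a mature name were collapsed to the highest count, which left 434 miRNAs and removed at most 0.219% of a library's reads; positions (1-based) come from the Ensembl annotation, release 115 on WBcel235, where 247 of 250 hairpin names were found.

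Counts were tested with edgeR 4.0.16 (R 4.3.3; TMM scaling, 10 reads in 4 libraries, quasi-likelihood test, adjusted p threshold 0.05, SE from the F statistic). Diet and day were factors on the 12 libraries of days 4 to 10; age was a number on 13 libraries, and separate slopes used the 12. The alternatives used DESeq2 1.42.0, limma 3.58.1 (voom, also with a random block), other scalings, no filter, no day term, and each library or day 8 left out. Tables, permutations and plots were made in Python 3.11.15 (matplotlib 3.10.9, scipy 1.17.1, numpy 2.4.6, pandas 2.3.3). edgeR was first tried on simulated counts, only for IF against AL, day 8 against day 6, the common slope and the slope difference.

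In the titles the replicate number stands for the adult day, so day is the replicate block. Libraries of the same day, after removal of diet means, correlated at 0.555 to 0.894 (median 0.771, 12 pairs, 212 miRNAs) and those of other days and diets at -0.585 to 0.316 (median -0.269, 36 pairs). When libraries of a day are alike, removing the diet means pushes the values for other days below 0 by construction, so their sign is not a finding.

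The miRNAs named are the 3 members, their other arms, miRNAs within 10000 bp on the same strand, the 3 most alike in profile, and a list of 9 tied to lifespan or stress. Members and lists were chosen with earlier results of these data known.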

Additional observations from a re-analysis of the deposited data

Results flagged for a closer look

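Within each diet, the libraries of a group are different days, so a library that stands apart is also a day that stands apart. Of 9 combinations of miRNA and diet tested, 3 had 1 library separated from the others by more than Dixon's 95% criterion. That criterion passes about 1 in 20 by chance only for normally spread values. It was applied to CPM without taking logs, so the 3 are not set against that rate. miR-239a-5p in IF was at 14818 CPM on day 6 and between 2486 and 3596 on the other 3 days. miR-239b-5p was at 2649 CPM in AL on day 4, against 317 to 682 on the other 4 days. In CR, miR-239b-5p was at 1125 CPM on day 4, against 410 to 461 on the other 3 days.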

How the results depend on the processing

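Without day in the model (no replicate block), 0 miRNAs were called for IF against AL, and miR-239b-5p changed sign to -0.11 there and miR-238-3p to 0.20 for CR against IF; no member was called with or without the block. DESeq2 called 51 miRNAs for IF against AL, 21 for CR against AL and 65 for the common slope, where it also called miR-239a-5p (-0.48, adjusted p = 0.000956). CR against AL gave 9 calls with DESeq2 size factors, 15 with total counts, 22 with no filter and 7 without day 8. With total counts, day 6 against day 4 gave 93 calls and the common slope 17; miR-238-3p had 0.10 for IF against AL, 1.97 for day 6 against day 4 (edgeR adjusted p = 0.00432), 0.55 for day 8 against day 6 and 0.46 for day 10 against day 8, and miR-239b-5p -0.97 for day 6 against day 4. For day 8 against day 6, miR-239b-5p was -0.13 with DESeq2 and with its size factors, -0.0102 with limma-voom, -1.38 with total counts and -0.0777 with no filter. For day 10 against day 8, miR-239a-5p was 0.20 with DESeq2 and with its size factors, 0.84 with total counts and 0.15 with no filter. Without day 8, miR-239b-5p was -0.24 for IF against AL, and without day 2 the slope of miR-239a-5p was -0.57. Day as a random replicate block left 4 slopes called, with miR-238-3p at 0.46, and the joint exchange of days gave ratio slopes of -1.01 and -0.76 with adjusted p = 0.25.

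Leaving out 1 library at a time gave 7 to 36 calls for IF against AL, 0 to 13 for CR against AL, 14 to 55 for day 6 against day 4, 39 to 71 for day 10 against day 4 and 18 to 31 for the common slope. Counts moved by over 1.5 times for IF against AL without AL day 6 (7), IF day 6 (17) or IF day 8 (15), for CR against AL without CR day 8 (9), IF day 4 (13) or IF day 8 (1), and for day 6 against day 4 without CR day 6 (22) or IF day 6 (14). They did so for day 10 against day 4 without AL day 4 (47), AL day 10 (44) or CR day 10 (39), and for the slope without CR day 6 (19) or IF day 4 (18). For IF against AL the log2 values ran from -0.82 to 0.0329 for miR-238-3p and from -0.13 to 0.36 for miR-239b-5p. There miR-239a-5p ran from -0.97 to -0.0352, the latter without IF day 4 and -0.0857 without AL day 4, and was -0.11 with total counts, -1.18 without day 8 and -1.34 without the block, none of them called. They ran from -0.73 to 0.25 for miR-239a-5p in CR against AL, and in CR against IF from -0.55 to 0.31 for miR-238-3p and from -0.29 to 0.56 for miR-239a-5p. For day 6 against day 4 they ran from 0.77 to 1.84 for miR-238-3p, from -0.18 to 1.31 for miR-239a-5p and from -2.01 to -1.47 for miR-239b-5p. For day 8 against day 6, miR-239b-5p ran from -0.32 to 0.37. For day 10 against day 8 they ran from -0.92 to 0.0505 for miR-238-3p, from -0.49 to 0.45 for miR-239a-5p and from -0.32 to 0.35 for miR-239b-5p. Slopes ran from -0.57 to -0.41 for miR-239a-5p over all diets and from -0.31 to 0.19 for miR-239b-5p in IF, and the slope of the ratio of miR-239b-5p to miR-239a-5p from 0.22 to 0.41. The causes were not tested.

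With 1 library per diet and day, a difference between diets on a single day has no replicate. Counting error is small beside the spread between libraries for the 3 guide arms, and limits the other arms, miR-239b-3p most of all.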
